A study of Mus musculus with 10 samples.

Results

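Small noncoding RNAs that act in protein-RNA particles were described in total RNA of the mouse hippocampus: small nucleolar RNAs (snoRNAs), the small Cajal body RNAs (scaRNAs), the small nuclear RNAs (snRNAs) of the spliceosome, and a few other RNAs such as 7SL, 7SK and the Y RNAs. Members were taken by gene symbol, as all genes without a protein product whose symbol starts with Snora, Snord, Scarna, Rnu, Rny or Rn7s, together with Rmrp, Rpph1 and Terc. The deposited table held 152 of them among 28871 genes: 87 box C/D snoRNAs, 37 box H/ACA snoRNAs, 9 scaRNAs, 10 spliceosomal snRNAs and 9 other RNAs. A further 30 annotated genes that meet the rule were not analysed here. Not all of the 9 other RNAs are cytoplasmic: 7SL and the Y RNAs are, while 7SK, RNase P RNA, RNase MRP RNA and telomerase RNA act in the nucleus.

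The samples were whole hippocampus of wild-type male C57BL/6J mice aged 2 months. A Visudyne group of 5 samples (numbers 3, 6, 9, 12 and 15) was set against a vehicle group of 5 samples (numbers 1, 4, 7, 10 and 13). Visudyne, a preparation of the photosensitizer verteporfin, was injected into the cisterna magna and converted with red light of 689 nm through the skull, a procedure meant to ablate meningeal lymphatic vessels; vehicle mice had the same injection and illumination without verteporfin, and the procedure was given again after 2 weeks, with tissue taken 2 weeks after the last one. Whether a sample is 1 animal is not stated in the labels, so p-values measure the spread between these samples. Totals were 51165271 to 68895223 estimated counts per sample. Hippocampal neuron markers were present, with Prox1 at 101 ± 10.7 CPM (counts divided by scaled library totals) in Visudyne samples and 107.5 ± 7.83 CPM in vehicle samples, and Neurod6 at 132 ± 15.1 and 146 ± 9.72 CPM (SD, n = 5 each). Of 25 marker genes of neurons, glia, meninges, choroid plexus, blood and RNA quality, 1 was called different, the fibroblast collagen Col1a1, at 19.0 ± 2.47 CPM in Visudyne samples and 8.42 ± 2.30 CPM in vehicle samples (edgeR log2 fold change 1.18, SE 0.16, adjusted p = 0.0485). This call was lost without Visudyne 3, without Visudyne 6 and without vehicle 7, since 0 genes were then called higher. It was also lost when Visudyne 3, vehicle 1 and vehicle 10 were left out together. Whether Col1a1 was among the few genes called in other settings is not given here.

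Box C/D snoRNAs guide the methylation of riboses, and box H/ACA snoRNAs the conversion of uridine to pseudouridine, mostly in ribosomal RNA, while a few, such as U3 and U17, take part in cutting the ribosomal precursor. In mammals most are released from introns of a host transcript. The scaRNAs guide the same modifications in spliceosomal snRNAs, and the snRNAs, assembled with Sm or LSm proteins, recognise splice sites and branch points. 7SL is the scaffold of the signal recognition particle, 7SK holds the elongation kinase P-TEFb in an inactive form, and Y RNAs bind the Ro60 protein. None of these RNAs carries a long poly(A) tail, so they are seen here because the library kit was made for total RNA.

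The class names rest on short sequence elements, which were searched on the transcript strand of the annotated RNAs (GENCODE, GRCm38/mm10). The C box, searched as TGATGA in the first 20 bases, was found in 62 of 87 box C/D snoRNAs (71.3%), against 0.7% of 141672 annotated transcripts of any kind. The D box, CTGA in the last 20 bases, was found in 85 of 87 (97.7%, against 9.24% of transcripts). Of 37 box H/ACA snoRNAs 31 ended in ACANNN (83.8%, against 2.45%). An Sm-type site, ATTTNTG or ATTTNTTG in the last 200 bases, was found in 8 of 10 spliceosomal snRNAs (80%, against 11.8%). A run of at least 3 T at the end, as RNA polymerase III leaves it, was found in 3 of 9 other RNAs (33.3%, against 3.06%). The C and D windows lie at opposite ends and do not overlap, and a missing match says only that these letters are not in the window.

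Shown first are the RNAs on which the results turn for box C/D and box H/ACA: Snord15b, the box C/D snoRNA of highest mean CPM (chr7:99479563-99479707, minus strand), and Snord116l1, one of a run of near-identical copies of the Prader-Willi region (chr7:59894620-59894713, minus strand), with capitals at the C and D boxes. Snora73a (chr4:132352775-132352979, minus strand) and Snora73b (chr4:132352322-132352526, minus strand) are both copies of U17, with capitals at the 7 of 205 positions at which they differ. Snora44 (chr4:132309941-132310069, plus strand) had the smallest p of all members and has no capitals. All are written as DNA, 5′ to 3′.
Snord15b: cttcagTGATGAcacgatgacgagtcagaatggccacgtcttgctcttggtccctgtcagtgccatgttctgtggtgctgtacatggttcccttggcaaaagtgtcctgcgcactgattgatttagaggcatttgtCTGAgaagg
Snord116l1: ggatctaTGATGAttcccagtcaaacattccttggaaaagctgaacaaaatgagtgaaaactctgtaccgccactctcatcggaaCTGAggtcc
Snora73a: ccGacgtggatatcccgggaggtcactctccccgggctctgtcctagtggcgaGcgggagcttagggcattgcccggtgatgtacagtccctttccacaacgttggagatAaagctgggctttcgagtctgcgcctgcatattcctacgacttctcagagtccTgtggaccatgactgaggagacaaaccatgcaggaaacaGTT
Snora73b: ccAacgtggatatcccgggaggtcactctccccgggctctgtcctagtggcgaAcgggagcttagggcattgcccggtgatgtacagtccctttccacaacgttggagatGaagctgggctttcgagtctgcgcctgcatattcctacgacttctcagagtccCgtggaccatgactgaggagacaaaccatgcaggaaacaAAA
Snora44: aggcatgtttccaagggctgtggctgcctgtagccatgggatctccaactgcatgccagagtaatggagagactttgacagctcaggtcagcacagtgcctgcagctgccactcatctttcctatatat

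For the spliceosomal snRNAs, U1 (Rnu1a1, chr11:87422867-87423030, plus strand) and U12 (Rnu12, chr15:83149644-83149794, plus strand) are shown with the Sm-type site in capitals. The Y RNAs Rny1 (chr6:47788069-47788180, minus strand) and Rny3 (chr6:47781624-47781725, plus strand) follow, with the final T run in capitals, as the pair with the largest positive differences relative to their error among the well-counted members.
Rnu1a1: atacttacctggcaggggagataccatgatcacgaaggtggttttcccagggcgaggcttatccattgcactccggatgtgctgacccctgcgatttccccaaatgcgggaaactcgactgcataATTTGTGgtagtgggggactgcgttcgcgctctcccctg
Rnu12: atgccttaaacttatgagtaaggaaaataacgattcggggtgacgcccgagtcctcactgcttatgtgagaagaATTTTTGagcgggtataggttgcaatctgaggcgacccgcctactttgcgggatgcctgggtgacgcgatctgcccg
Rny1: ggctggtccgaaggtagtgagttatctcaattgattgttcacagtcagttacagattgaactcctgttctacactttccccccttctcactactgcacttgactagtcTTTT
Rny3: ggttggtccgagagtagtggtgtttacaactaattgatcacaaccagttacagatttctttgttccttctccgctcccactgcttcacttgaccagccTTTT

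Identical copies limit what a single gene's count means, because reads that match several copies were divided between them by estimation. Of 152 members 27 had a copy of identical sequence elsewhere in the annotation. Rn7s2 has the same 300 bases as Rn7s1 and received almost the same count in each sample. U1 (Rnu1a1) has 6 identical copies, U2 (Rnu2-10) 3 and U6 (Rnu6) 42. Reads of the 30 identical Snord116 copies in the table were shared out evenly, so that Snord116l1 was assigned 3, 4, 3, 2 and 0 counts in the Visudyne samples and 1, 1, 3, 1 and 3 in the vehicle samples. Such counts are read here as a family sum. A second limit applies to the 45 members that overlap an exon of their host, where reads of member and host cannot be told apart, against 78 that lie in an intron and 29 outside other genes.

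7SL dominated the small RNA counts. Together the members took 9.69 ± 0.298% of all counts in Visudyne samples and 9.41 ± 0.658% in vehicle samples (SD, n = 5 each), of which the 7SL genes Rn7s1 and Rn7s2 alone took 7.57 ± 0.173% and 7.31 ± 0.484%. Over all samples 77.9% of the members' counts were 7SL, and 99.3% belonged to the 9 other RNAs. The snoRNAs, scaRNAs and snRNAs thus rest on far fewer reads. Per kilobase of RNA, the mean level over all samples was 123992 CPM for Rn7s1, 53116 CPM for Rn7sk, 5049 CPM for Rpph1, 4234 CPM for Rmrp, 585 CPM for Scarna10, 423 CPM for Rny3, 349 CPM for Rny1, 327 CPM for Snora73a and 264 CPM for Rnu2-10, with the reads of identical copies left on the other genes.

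No small RNA was called higher or lower with Visudyne. Of the 152 members 68 passed the filter on low counts and were tested, and 84 with 2 to 110 counts over the 10 samples were not. At an edgeR adjusted p under 0.05, 0 of 68 were higher, where 0.021% of all 19093 genes tested were, and 0 of 68 were lower, where 0% of all genes were; each member's adjusted p was 0.9999. At an unadjusted p under 0.05, 1 member was higher and 0 were lower, against 1.14% and 0.56% of all genes, and DESeq2 and limma voom also called 0 members. In 0 of 68 did all Visudyne samples lie above all vehicle samples (0.319% of all genes), and in 0 did they lie below (0.115%). The log2 fold change, Visudyne minus vehicle, was smaller than its SE in 54 of the 68. In bulk tissue a lower level could be fewer cells of a type or less RNA per cell, and these cannot be told apart.

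**Figure D1:**
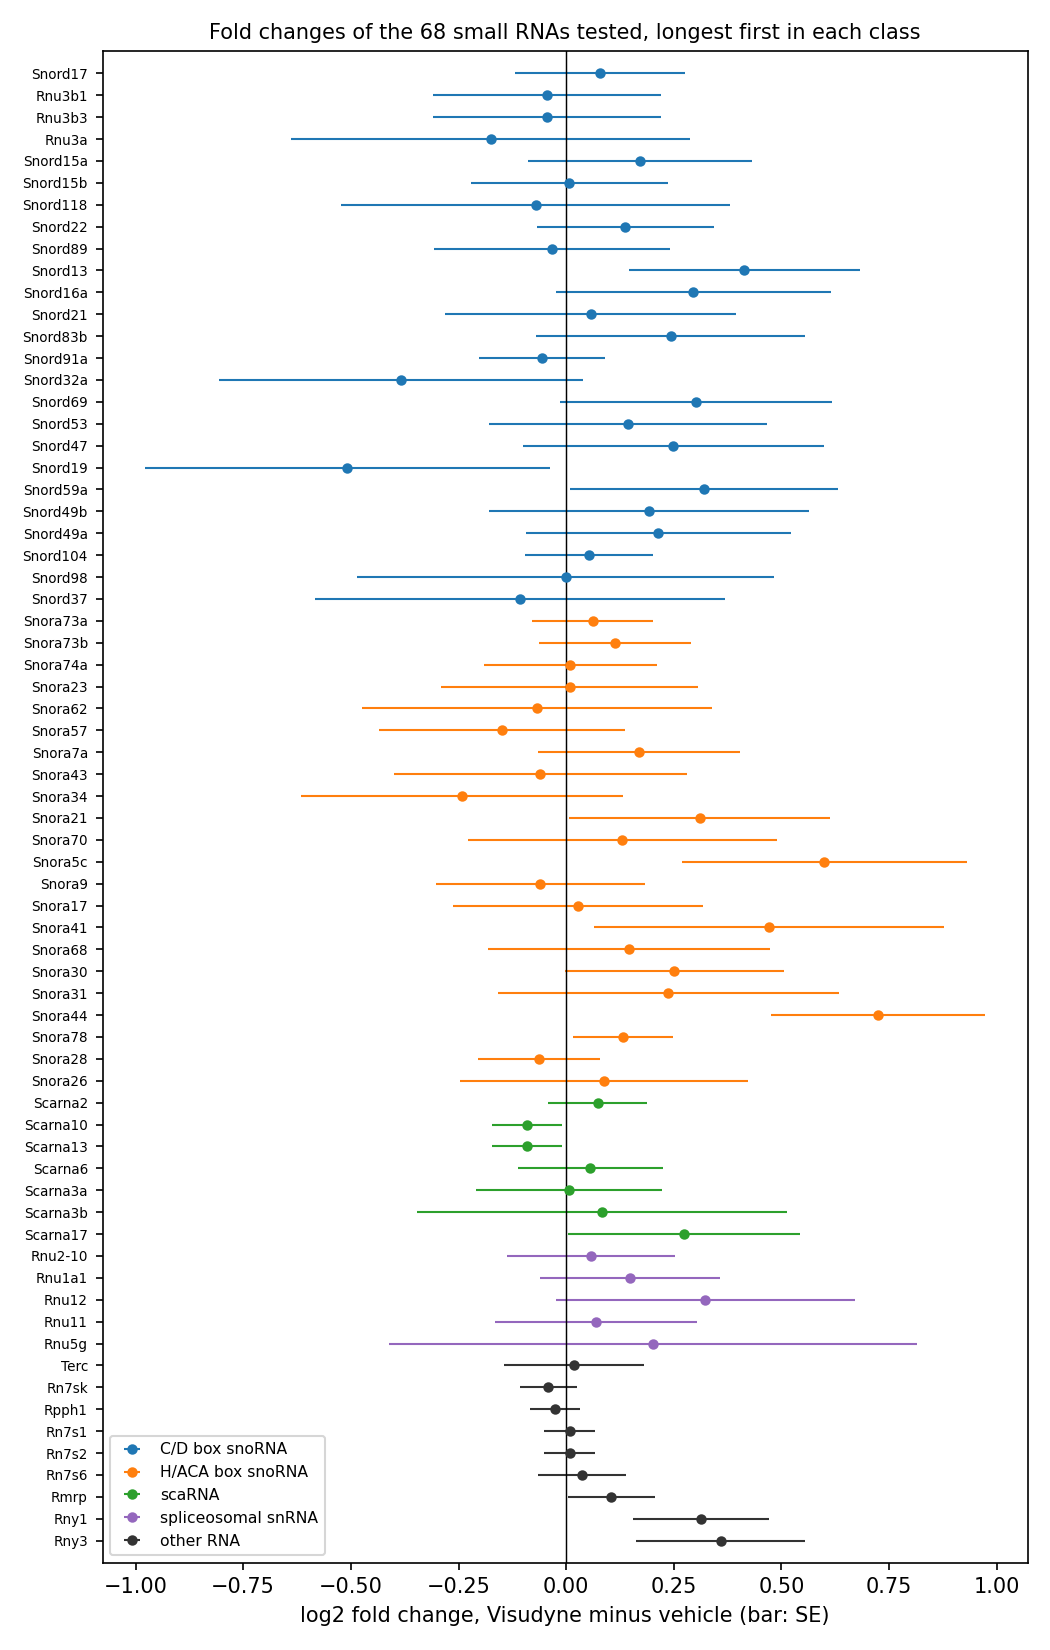
Log2 fold change of each of the 68 members tested (Visudyne minus vehicle, edgeR), with bars of 1 SE, coloured by class and ordered by length within a class. Most bars cross 0. The widest belongs to the spliceosomal snRNA Rnu5g (SE 0.61), and the widest among snoRNAs to Snord98 (SE 0.48). The better-counted Rnu3a also has a wide bar (SE 0.46).

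Median fold changes were small in every class, and none was tested against another. Median log2 fold changes were 0.06 for 25 box C/D snoRNAs, 0.10 for 22 box H/ACA snoRNAs, 0.06 for 7 scaRNAs, 0.15 for 5 spliceosomal snRNAs and 0.02 for the 9 other RNAs, and 0.07 over all 68, beside 0.0022 over all genes tested. Fold changes were positive in 48 members and negative in 20, and over all genes tested positive in 9755 and negative in 9338. Over 20 alternative settings the medians ranged from -0.08 to 0.15 for box C/D, from -0.03 to 0.24 for box H/ACA and from -0.06 to 0.15 for scaRNAs, so that their direction was not stable, from -0.01 to 0.10 for the other RNAs, and from 0.04 to 0.28 for the spliceosomal snRNAs. Median SEs were 0.31 in box C/D, 0.29 in box H/ACA, 0.17 in scaRNAs, 0.24 in spliceosomal and 0.10 in other RNAs.

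The signal recognition particle RNA was the steadiest member. Rn7s1 measured 37357, 36251, 37967, 38594 and 36327 CPM in Visudyne samples and 39414, 37010, 35026, 34843 and 39188 CPM in vehicle samples. All Visudyne samples lay inside the vehicle range (edgeR log2 fold change 0.01, SE 0.06), and the sign turned when vehicle 7 or vehicle 10 was left out. Of the proteins of that particle, Srp68 had 24.2 ± 0.313 CPM in Visudyne samples and 22.8 ± 0.835 CPM in vehicle samples (0.08, SE 0.04), and Srp14 had 43.9 ± 4.29 and 45.3 ± 3.36 CPM; neither was called.

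The nuclear RNA polymerase III products 7SK and RNase P RNA also varied little, with SDs of log2(CPM + 0.5) over the 10 samples of 0.09 for Rn7sk and 0.08 for Rpph1, against 0.06 for Rn7s1 and 0.18 for Rmrp. Rn7sk measured 16161, 17853, 18112, 17632 and 16873 CPM in Visudyne samples and 19278, 17037, 16041, 17476 and 19351 CPM in vehicle samples, and all Visudyne samples lay inside the vehicle range (-0.04, SE 0.07). Rpph1, the RNA of RNase P, which trims the 5′ end of tRNA precursors, measured 1596 ± 85.3 CPM in Visudyne samples and 1625 ± 112.9 CPM in vehicle samples (-0.03, SE 0.06). Rmrp, the RNA of the related RNase MRP, measured 1001, 1201, 1242, 1266 and 1235 CPM in Visudyne samples and 967, 1059, 998, 1086 and 1417 CPM in vehicle samples. Here Visudyne 3 lay below the other Visudyne samples and vehicle 13 above every other sample (0.11, SE 0.10). Terc, the template RNA of telomerase and a product of RNA polymerase II, stood at 0.695 ± 0.0220 CPM in Visudyne samples and 0.685 ± 0.0892 CPM in vehicle samples (0.02, SE 0.16), a mean of 40.3 counts per sample.

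Among well-counted members the Y RNAs had the largest positive differences relative to their error. Rny1 measured 32.8, 44.4, 43.2, 50.8 and 45.8 CPM in Visudyne samples and 32.3, 36.9, 34.2, 23.6 and 47.4 CPM in vehicle samples. Rny3 measured 35.2, 54.9, 49.4, 47.3 and 55.6 CPM in Visudyne samples and 34.9, 39.6, 34.2, 23.1 and 57.1 CPM in vehicle samples. In both genes Visudyne 3 sat among the vehicle samples, vehicle 10 was the lowest and vehicle 13 lay inside or above the Visudyne range. The edgeR log2 fold changes were 0.31 (SE 0.16, unadjusted p = 0.0707) for Rny1 and 0.36 (SE 0.20, unadjusted p = 0.0930) for Rny3, with an adjusted p of 0.9999 for both. Leaving out vehicle 10 gave 0.20 for Rny1 and 0.23 for Rny3, and leaving out vehicle 13 gave 0.46 and 0.57. The genes lie 6343 bases apart on chromosome 6, on opposite strands, and share 73.04% of aligned positions. Ro60, the Y RNA binding protein (listed as Trove2), measured 89.6 ± 7.01 CPM in Visudyne samples and 92.1 ± 7.02 CPM in vehicle samples, and La (Ssb), which binds the final U run, 91.0 ± 9.09 and 97.5 ± 8.92 CPM.

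**Figure D2:**
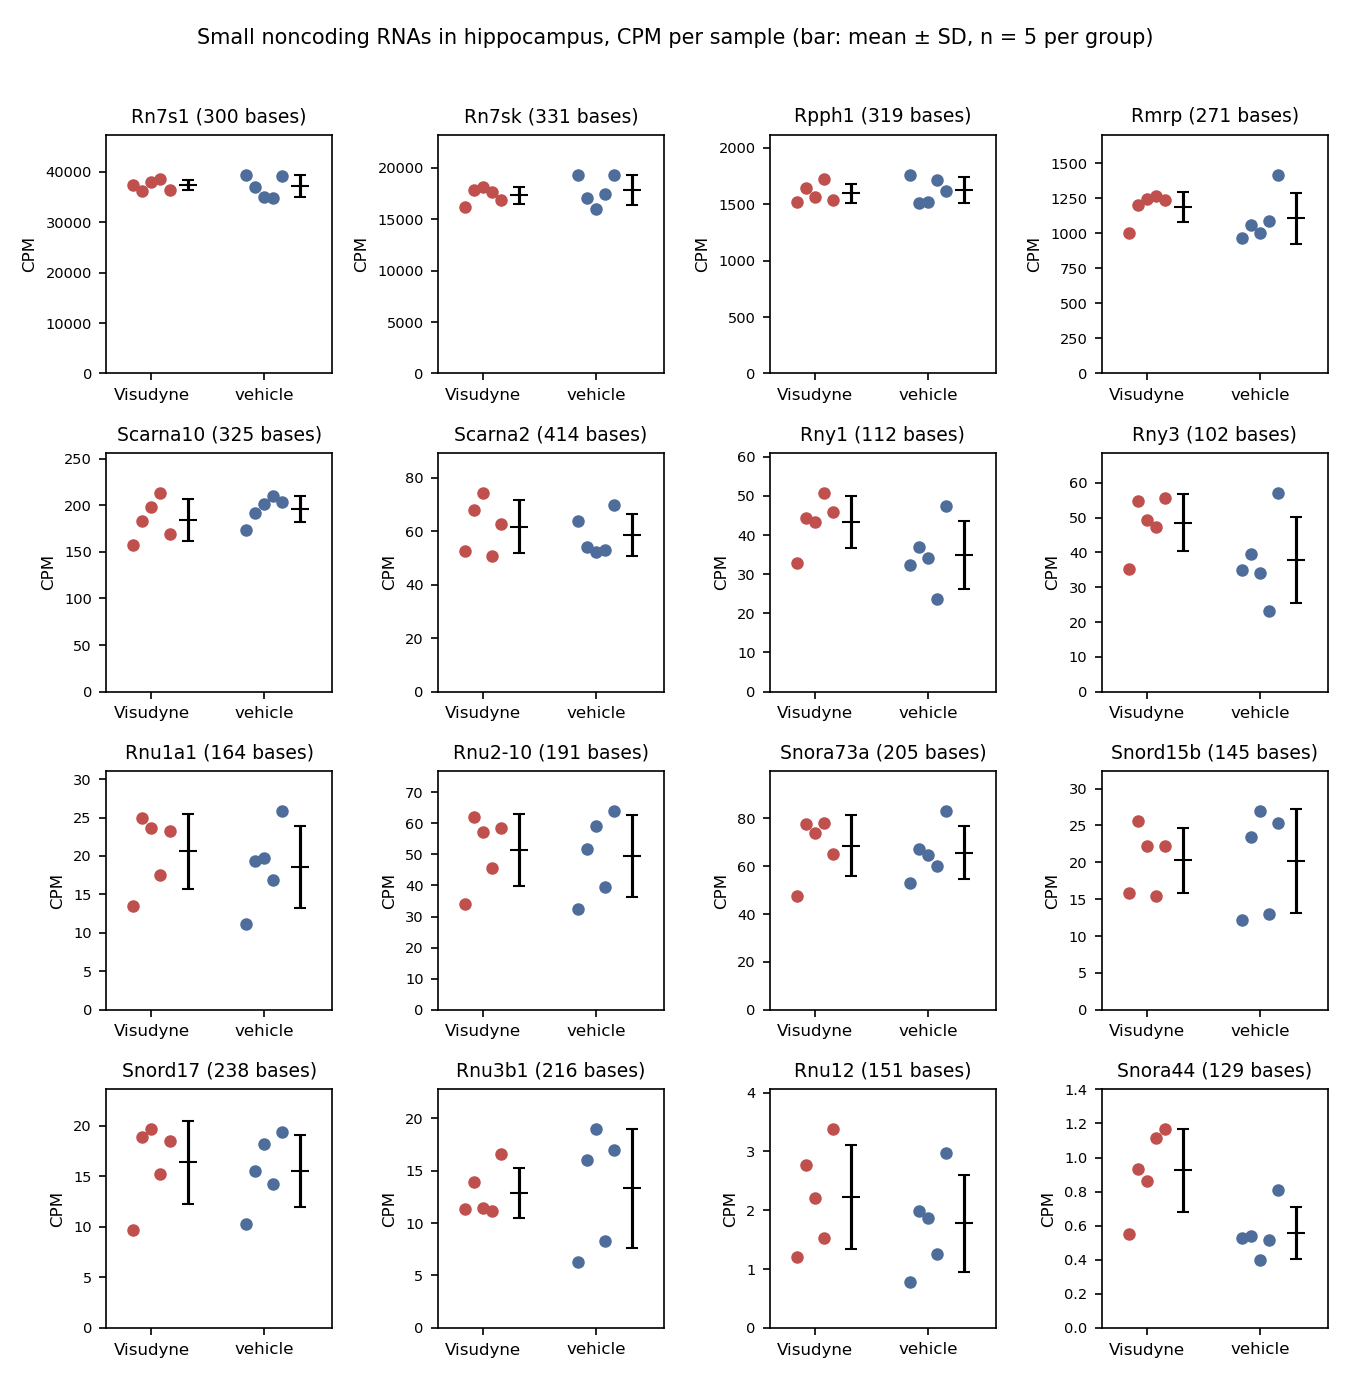
CPM of 16 members in each of 5 Visudyne samples (left) and 5 vehicle samples (right); points are samples, in order of sample number, and bars are the mean ± SD. Groups overlap in every panel, and the first Visudyne point (Visudyne 3) and the first vehicle point (vehicle 1) are low in most RNAs of up to 250 bases, while in Rn7s1 vehicle 1 is the highest sample.

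The 5 spliceosomal snRNAs tested all had positive fold changes, none beyond its SE. U2 (Rnu2-10), which pairs with the branch point, measured 33.9, 62.0, 57.2, 45.5 and 58.5 CPM in Visudyne samples and 32.5, 51.9, 59.2, 39.6 and 63.99 CPM in vehicle samples (0.06, SE 0.20). U1 (Rnu1a1), which pairs with the 5′ splice site, measured 13.5, 24.9, 23.7, 17.6 and 23.3 CPM in Visudyne samples and 11.1, 19.4, 19.8, 16.9 and 25.9 CPM in vehicle samples (0.15, SE 0.21). In both, the spread within a group was larger than the difference between groups. Summed over identical copies, the 7 U1 genes reached 144 ± 34.2 CPM in Visudyne samples and 130 ± 37.2 CPM in vehicle samples, the 4 U2 genes 206 ± 46.4 and 198 ± 52.8 CPM, and the 43 U6 genes 3.68 ± 0.657 and 3.43 ± 0.536 CPM. The U6 copies carried equal whole numbers, 4, 7, 6, 5 and 4 in Visudyne samples and 4, 4, 4, 5 and 5 in vehicle samples. Their sum repeats that rounding 43 times, so its mean and SD are coarse. The sign for Rnu2-10 was negative without Visudyne 6, vehicle 1 or vehicle 10.

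Of the snRNAs of the minor spliceosome, which removes the rare U12-type introns, Rnu12 measured 1.21, 2.77, 2.21, 1.53 and 3.38 CPM in Visudyne samples and 0.782, 1.99, 1.87, 1.26 and 2.98 CPM in vehicle samples. Again the groups overlapped over most of their range (0.32, SE 0.35), and the value was 0.12 without Visudyne 15 and 0.61 without vehicle 13. Rnu11 measured 0.735 ± 0.221 CPM in Visudyne samples and 0.702 ± 0.107 CPM in vehicle samples (0.07, SE 0.24). U5 (Rnu5g) had 27, 53, 0, 74 and 47 counts in Visudyne samples and 29, 25, 31, 34 and 43 counts in vehicle samples. Visudyne 9 stood apart with an estimated count of 0, which does not show absence, beside 25 or more in every other sample (0.20, SE 0.61).

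Among box C/D snoRNAs the summed level was 82.6 ± 14.7 CPM in Visudyne samples and 82.3 ± 27.0 CPM in vehicle samples. Snord15b (U15) overlaps an exon of its host, the ribosomal protein gene Rps3. It measured 15.9, 25.6, 22.1, 15.4 and 22.2 CPM in Visudyne samples and 12.2, 23.4, 27.0, 13.04 and 25.3 CPM in vehicle samples. The vehicle samples fell into 2 low and 3 high values around the same mean as Visudyne (0.01, SE 0.23). Snord17 measured 16.4 ± 4.13 CPM in Visudyne samples and 15.5 ± 3.60 CPM in vehicle samples (0.08, SE 0.20). U3 (Rnu3b1), which is needed for the first cuts of the ribosomal precursor, measured 11.3, 13.9, 11.4, 11.2 and 16.6 CPM in Visudyne samples and 6.28, 16.05, 19.0, 8.26 and 17.0 CPM in vehicle samples. Of the vehicle samples 2 lay below all Visudyne samples and 2 above them (-0.04, SE 0.26), and leaving out vehicle 7 turned the value to 0.12. Rnu3b3 carries the same 216 bases and the same reads.

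The box C/D snoRNAs of smallest p rest on low counts. Snord13 (U13), a guide of acetylation of the small subunit ribosomal RNA, measured 0.535, 0.753, 0.455, 0.487 and 0.523 CPM in Visudyne samples and 0.255, 0.463, 0.397, 0.316 and 0.633 CPM in vehicle samples (0.41, SE 0.27). Only Visudyne 6 lay above the whole vehicle range. Snord19 stood at 0.179 ± 0.137 CPM in Visudyne samples and 0.257 ± 0.0647 CPM in vehicle samples (-0.51, SE 0.47), and Snord32a at 0.160 ± 0.108 and 0.214 ± 0.0471 CPM (-0.38, SE 0.42), with means of 12.7 and 11.1 counts per sample. Of the imprinted orphan snoRNAs, which have no known ribosomal target, 17 members were in the table with 334 counts in all, and 0 could be tested. The 30 identical Snord116 genes in the table include genes outside the members. They summed to 1.17 ± 0.689 CPM in Visudyne samples and 0.973 ± 0.594 CPM in vehicle samples, from whole numbers rounded per copy.

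Box H/ACA snoRNAs summed to 182 ± 33.7 CPM in Visudyne samples and 174 ± 37.2 CPM in vehicle samples. Snora73a (U17) measured 47.6, 77.7, 73.9, 78.1 and 65.3 CPM in Visudyne samples and 53.1, 67.4, 64.5, 60.2 and 83.1 CPM in vehicle samples (0.06, SE 0.14). Its neighbour Snora73b, 248 bases away also in an intron of Rcc1, measured 25.2, 40.8, 39.9, 39.9 and 42.1 CPM in Visudyne samples and 25.0, 35.0, 32.5, 30.9 and 50.3 CPM in vehicle samples (0.11, SE 0.18). Visudyne 3 was the lowest Visudyne sample in both, and vehicle 13 the highest of all. Snora74a (U19) followed the same order at 50.3 ± 12.9 CPM in Visudyne samples and 49.98 ± 11.5 CPM in vehicle samples (0.01, SE 0.20), with 28.1 CPM in Visudyne 3.

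Snora44 was the single member with an unadjusted p under 0.05. It measured 0.553, 0.934, 0.860, 1.12 and 1.17 CPM in Visudyne samples and 0.527, 0.541, 0.397, 0.514 and 0.807 CPM in vehicle samples. Visudyne 3 lay among the vehicle samples, and the other Visudyne samples lay above all vehicle samples (edgeR log2 fold change 0.72, SE 0.25, unadjusted p = 0.0129, adjusted p = 0.9999). The value ranged from 0.62 to 0.91 when single samples were left out. Its host Snhg12, a noncoding transcript with an exon that overlaps Snora44, measured 9.72 ± 0.395 CPM in Visudyne samples and 10.2 ± 0.619 CPM in vehicle samples (-0.07, SE 0.06). The other snoRNAs of Snhg12, taken as examples, gave 9, 13, 7, 9 and 17 counts (Snora61) in Visudyne samples and 7, 4, 12, 8 and 20 in vehicle samples, and 2, 7, 7, 0 and 6 counts (Snord99) in Visudyne samples and 1, 4, 4, 0 and 5 in vehicle samples, too few for a test. Next by p among box H/ACA snoRNAs was Snora5c, in the gene Tbrg4, at 0.322 ± 0.101 CPM in Visudyne samples and 0.210 ± 0.0840 CPM in vehicle samples (0.60, SE 0.33). Snora34, in Kansl2, had 0.196 ± 0.0776 and 0.231 ± 0.106 CPM (-0.24, SE 0.37).

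The scaRNAs of highest CPM are longer than 250 bases, and their SEs were among the smallest. Scarna10 (U85), which carries both C/D and H/ACA elements, measured 157, 183, 198, 213 and 170 CPM in Visudyne samples and 173, 192, 202, 210 and 204 CPM in vehicle samples. Visudyne 3 and Visudyne 15 lay below the vehicle range and Visudyne 12 above it (-0.09, SE 0.08). Scarna13 measured 47.8 ± 3.77 CPM in Visudyne samples and 50.9 ± 6.10 CPM in vehicle samples (-0.09, SE 0.08), and Scarna2 61.7 ± 10.04 and 58.7 ± 7.83 CPM (0.07, SE 0.12).

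Short small RNAs varied between libraries far more than longer ones, in both groups. This was measured on the 27 members with at least 100 counts per sample on average; the count minimum and the length limit of 250 bases were chosen after the values were seen. For the 17 members of up to 250 bases the SD of log2(CPM + 0.5) over all 10 samples had a median of 0.38 (range 0.16 to 0.79), and for the 10 longer members 0.13 (0.06 to 0.30). Rnu3b1 and Rnu3b3 among the 17, and Rn7s1 and Rn7s2 among the 10, are identical pairs that repeat the same reads. Just below the limit Snord17 (238 bases) had 0.36, and just above it Scarna6 (265 bases) had 0.30 and Rmrp (271 bases) 0.18. Rn7s1, Rn7s2, Rn7sk, Rpph1 and Rmrp, all over 250 bases, had means of 66914 counts or more and SDs of 0.06 to 0.18. Rny3 (102 bases) with a mean of 2546 counts had 0.41, and Rn7s6 (291 bases), a 7SL-related gene with a mean of 222.9 counts, had 0.12. The short Snord91a (93 bases, 0.16) and Snora78 (128 bases, 0.19) lay below Scarna6 and Scarna2 (414 bases, 0.20). The parts of count and of length in the spread were not tested.

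**Figure D3:**
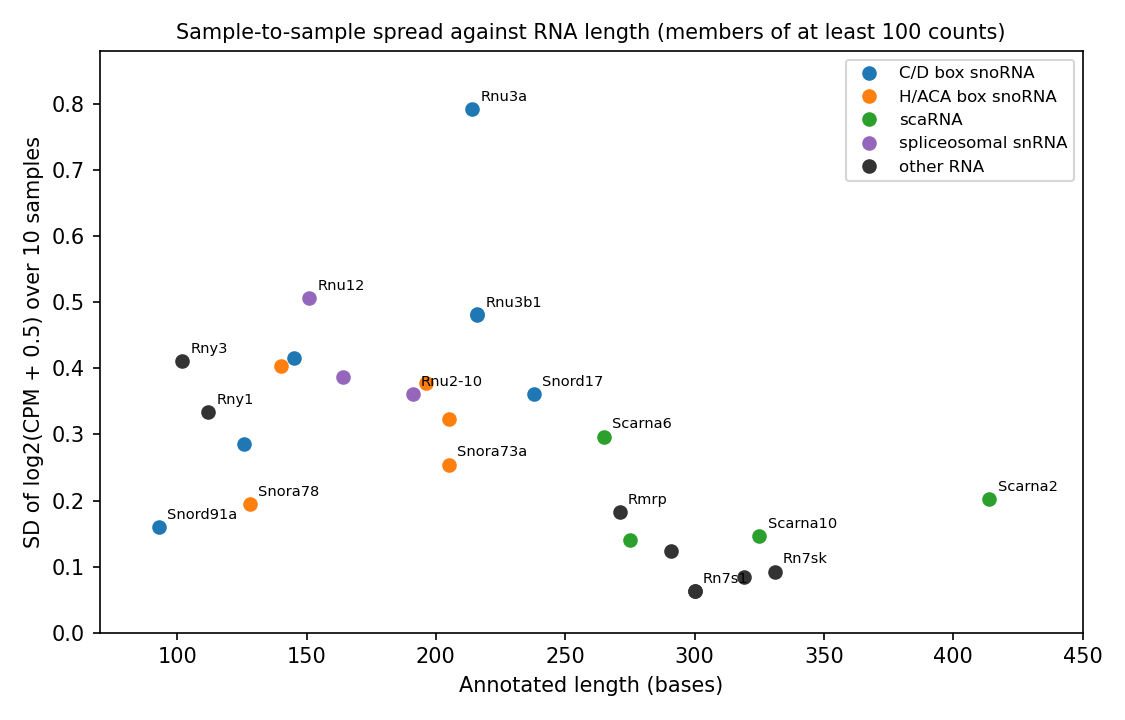
SD of log2(CPM + 0.5) over the 10 samples against annotated length in bases for the 27 members of at least 100 counts on average, coloured by class. The 17 members of up to 250 bases reach 0.79, and the longer ones stay at or below 0.30.

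The same libraries were low or high for most of the short members. Relative to each gene's own mean, the median of the 17 was -0.29 in Visudyne 3, 0.23 in Visudyne 6, 0.17 in Visudyne 9, -0.03 in Visudyne 12 and 0.25 in Visudyne 15, and it was -0.54 in vehicle 1, 0.03 in vehicle 4, 0.06 in vehicle 7, -0.39 in vehicle 10 and 0.41 in vehicle 13. Visudyne 3, vehicle 1 and vehicle 10 were each below the gene's mean in 16 of the 17. The lowest sample was vehicle 1 in 8, vehicle 10 in 5 and Visudyne 3 in 4, and the highest was vehicle 13 in 8. These tallies count the identical Rnu3b1 and Rnu3b3, both lowest in vehicle 1, separately. Group means of these medians were 0.07 ± 0.23 in Visudyne samples and -0.09 ± 0.38 in vehicle samples (SD, n = 5 each), a difference well inside the spread. Members that broke the order included Snord91a, highest in vehicle 1, Snora7a, close to its mean in Visudyne 3, and Rnu3a, which was below its mean by 0.44 in Visudyne 6 and by 0.70 in Visudyne 9.

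Genes outside the members repeated the pattern. In 31 other annotated snoRNA, snRNA and scaRNA genes of up to 250 bases, none an identical copy of a member, the medians were -0.27, 0.33, 0.17, -0.16 and 0.22 in the Visudyne samples and -0.45, 0.07, 0.09, -0.34 and 0.41 in the vehicle samples, so that vehicle 1 was again lowest and vehicle 13 highest. Near-identical variants of members were not left out of the 31, so the sets may share some reads. For the 13171 other genes over 250 bases the sample medians spanned 0.11, against 0.95 for the 17 short members. No correlation is given, since both sets come from the same libraries. By the SD of log2(CPM + 0.5), all 11 well-counted members with a tested host exceeded that host. Snord17, for example, which lies in an intron of Snx5, had 0.36 and Snx5 0.10. Snord15b had 0.42 and Rps3 0.14. However, Snord15b, Scarna10 and Snora7a overlap an exon of their host, so reads of member and host cannot be told apart. For Rnu1a1, Rnu3b1 and Rnu3b3 this cannot be read. Their annotated host Tex14 stood at 0.516 CPM, where the added 0.5 shrinks the SD. The SE of the fold change was 0.24 for Tex14 and 0.21 for Rnu1a1.

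**Figure D4:**
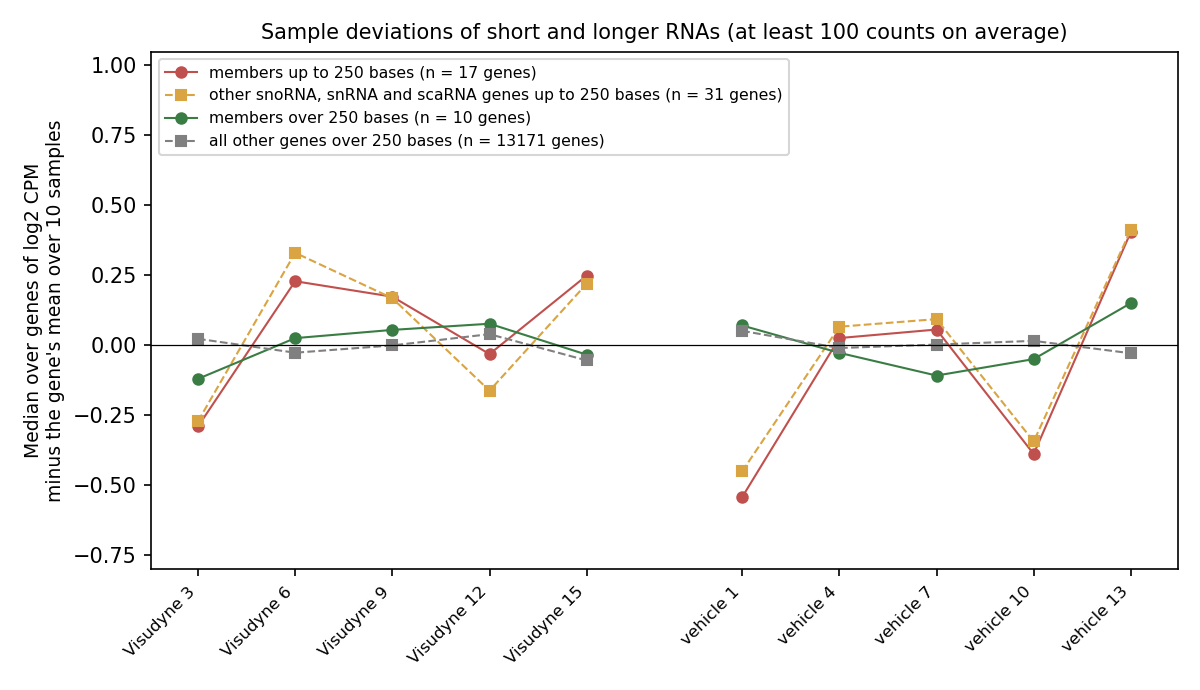
Median deviation of log2 CPM from each gene's mean in every sample, Visudyne samples left and vehicle samples right, for members and for other genes by length. Both short sets dip in Visudyne 3, vehicle 1 and vehicle 10 and peak in vehicle 13. The median of the 13171 longer genes stays near 0, where the scaling of totals holds it.

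Long nuclear RNAs and mitochondrial ribosomal RNA were measured in the same libraries. The long nuclear RNA Malat1 measured 3142, 4482, 3931, 2127 and 6331 CPM in Visudyne samples and 2016, 4515, 4405, 3210 and 5337 CPM in vehicle samples, lowest in vehicle 1 and Visudyne 12. The nuclear-enriched Meg3 ran from 319 CPM in Visudyne 12 to 1049 CPM in Visudyne 15, and Neat1 from 20.6 CPM in vehicle 1 to 52.6 CPM in Visudyne 15. Mitochondrial ribosomal RNA took 17.8% to 19.97% of counts in Visudyne samples and 18.7% to 21.5% in vehicle samples. In Visudyne samples it was higher where the short members were lowest, at 19.6% in Visudyne 3 and 19.97% in Visudyne 12. Visudyne 6 had 18.7%, Visudyne 9 17.8% and Visudyne 15 17.96%. Vehicle samples followed this inverse order only in part, with 21.2% in vehicle 1 and 18.7% in vehicle 13. Against it, vehicle 4 had 21.5%, vehicle 7 20.8% and vehicle 10 19.4%. Genes detected were fewest in vehicle 1 (24866) and vehicle 10 (24951). They were most numerous in Visudyne 15 (26151) and Visudyne 6 (26084), with 25823 in vehicle 13. Among the members, the cytoplasmic Rny1 and Rny3 had SDs of 0.33 and 0.41, and the cytoplasmic Rn7s1 0.06. The nuclear Rn7sk and Rpph1 had 0.09 and 0.08. The nuclear Rnu12, Rnu1a1, Rnu2-10 and Rnu3b1 had 0.51, 0.39, 0.36 and 0.48. These RNAs also differ in length. As background, silica columns of the kind used here retain RNA below about 200 bases poorly. The part of RNA recovery, of nuclear RNA content or of any other library property in this pattern was not tested.

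No host gene or protein partner of the small RNAs was called either. Of 41 tested members with a tested host, in 35 different hosts, 0 hosts were called (edgeR log2 fold changes from -0.18 to 0.12), and member and host had the same sign in 16 of the 41 pairs. Most hosts were negative (28 of 35) and most members tested positive (48 of 68), so unequal signs would be frequent without any link between them. The listed snoRNA host genes (34 tested, 0 called, median log2 fold change -0.04) had their smallest p in Snhg9 (-0.34, SE 0.22), Rpl5 (-0.09, SE 0.07) and Nop56 (-0.05, SE 0.04). Of 19 core and assembly proteins of snoRNA particles 0 were called (median -0.04), with Znhit3 at -0.12, Znhit6 at 0.29 and Ruvbl2 at -0.09, and the methyltransferase Fbl at 7.49 ± 0.344 CPM in Visudyne samples and 7.51 ± 0.416 CPM in vehicle samples.

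Of 39 proteins of spliceosomal particles 0 were called (median -0.03). Lsm8, a subunit of the ring bound to U6, measured 20.5 ± 1.44 CPM in Visudyne samples and 22.1 ± 0.629 CPM in vehicle samples (-0.11, SE 0.05), Sf3b1 had -0.07 (SE 0.04) and Lsm3 had 0.34 (SE 0.22). Of 42 proteins of the 7SK, signal recognition, Ro, RNase P and MRP, telomerase and snRNA-processing complexes 0 were called (median -0.02), with Srp68, Ssb and Pop4 (-0.12, SE 0.10) of smallest p. Every named protein or host had an edgeR adjusted p of at least 0.9999.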

How the data were processed

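Per the labels' protocols, hippocampal RNA was purified on silica columns and made into stranded libraries of total RNA. The values are estimated counts per gene, which the authors deposited as whole numbers; Salmon, FastQC and the build mm10 are named, per the submitters' processing notes. Tool versions and annotation: not given in the sources used here. Symbols, lengths, hosts and sequences came from GENCODE for GRCm38, which matched 28564 identifiers; the other 307 held 0.134% of counts.

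Differences were tested with the quasi-likelihood method of edgeR 4.0.16 in R 4.3.3, with the default filter on low counts (19093 genes tested), TMM factors and Benjamini-Hochberg adjustment over all genes tested at 0.05; CPM used TMM-scaled totals. It was tested on simulated data with 200 changed genes. Members and lists were chosen with earlier results of these data known. Named are the members called, the 5 of smallest p in each direction, the 3 of highest mean CPM per class, 10 members whatever their values, and the 3 genes of smallest p of each partner list; others are examples chosen after their values were seen. DESeq2 1.42.0, limma voom (limma 3.58.1), other normalizations, totals and filters, and leaving out each sample were tried. Depth of 51165271 to 68895223 counts limits precision mainly for members of few counts.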

Additional observations from a re-analysis of the deposited data

Results flagged for a closer look

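Of 64 sets of 5 samples examined for a sample that stands far from the others of its group, 6 had one; chance gives this in about 1 of 20 sets. In Visudyne samples, Visudyne 3 was far below the rest for Snora74a (28.1 CPM), Snora73b (25.2 CPM), Rmrp (1001 CPM) and the summed box H/ACA snoRNAs (123 CPM), and Visudyne 6 was far above the rest for Snord13 (0.753 CPM). In vehicle samples, vehicle 13 was far above the rest for Rmrp (1417 CPM). Snora74a and Snora73b are part of the box H/ACA sum, so these values are not independent.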

How the results depend on the processing

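No small RNA was called under any of 20 alternatives, of which 2 were added after the data were seen (the level of other short RNAs as a covariate, and leaving out Visudyne 3, vehicle 1 and vehicle 10 together). The lowest adjusted p of a named member was 0.946. Of all genes, 4 were called higher and 0 lower; upper-quartile factors, totals without the members and removal of mitochondrial genes gave 2 higher each, DESeq2 gave 16 higher and 2 lower, the covariate gave 7 higher, leaving out the 3 libraries gave 0 higher, and leaving out single samples gave 0 to 4 higher and 0 to 1 lower. It was 0 higher without Visudyne 3, Visudyne 6 or vehicle 7, 1 higher without Visudyne 9, Visudyne 12, Visudyne 15, vehicle 10 or vehicle 13, and 1 lower without vehicle 1.

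Of 27 named members 13 kept their sign in every alternative, and 43 of 532 values had the other sign. With voom these were Rnu3b1 at 0.077 and Snora74a at -0.0053. With the covariate they were Snord15b at -0.10, Snord17 at -0.033, Snora74a at -0.10, Rnu2-10 at -0.051 and Rnu11 at -0.054. Without the 3 libraries they were Snord15b at -0.24, Snora74a at -0.020, Rnu2-10 at -0.063, Rn7sk at 0.013, Rpph1 at 0.061 and Terc at -0.012. With single samples left out, values that crossed 0 ranged from -0.013 to 0.036 for Rn7s1, -0.012 to 0.036 for Rn7s2, -0.027 to 0.19 for Rnu11, -0.062 to 0.18 for Rnu2-10, -0.23 to 0.12 for Rnu3b1, -0.052 to 0.0042 for Rpph1, -0.0030 to 0.15 for Scarna2, -0.41 to 0.090 for Snora34, -0.0064 to 0.17 for Snora73a, -0.11 to 0.16 for Snora74a, -0.13 to 0.13 for Snord15b, -0.041 to 0.22 for Snord17 and -0.028 to 0.10 for Terc. Among those that kept their sign, leaving out a single sample gave 0.061 to 0.22 for Rmrp, 0.0082 to 0.31 for Rnu1a1, 0.015 to 0.30 for Snora73b, 0.45 to 0.87 for Snora5c, 0.27 to 0.64 for Snord13, -0.96 to -0.25 for Snord19, -0.81 to -0.17 for Snord32a, -0.14 to -0.039 for Scarna10 and -0.14 to -0.014 for Scarna13. The cause was not tested. No paired or blocked analysis was run, since the labels name no sets of samples and the groups share no replicate numbers. Whether samples of neighbouring numbers form sets is not stated and was not tested. Depth limits the 84 members not tested, and reads of identical copies cannot be assigned to 1 gene.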
